A study of Coregonus lavaretus with 13 samples.

Results

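The 251 putative long non-coding RNAs (lncRNAs) described here were lower in the liver of whitefish (Coregonus lavaretus) after exposure to microcystin-LR (MC-LR) than in PBS-injected fish at every time examined, and still gave reads on day 6. They were selected on measured values, from contigs that the authors had listed as changed against PBS fish. Of the 4729 contigs that the authors' tables list for at least 1 day of exposure, 457 are listed for all 3 days, and a contig was taken when its mean raw count over the 3 MC-LR fish was below the mean over the 4 PBS fish on each of the 3 days and when the day 6 fish together had at least 1 read of it. Another 91 contigs met all of this except that the day 6 fish had 0 reads, 114 were higher in MC-LR fish on all 3 days, and 1 contig was mixed. Of the contigs not listed for day 1, 1003 were lower on days 6 and 9.

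Liver RNA of 13 juvenile fish of the Rutki-strain was sequenced as 1 library per fish. MC-LR fish were injected into the body cavity with 100 μg of toxin per kg of body mass dissolved in PBS, and 3 of them each were sampled on days 1, 6 and 9. The injection was repeated a week into the experiment, so that the day 9 fish had received it a second time. The reference was formed by 4 fish that received PBS alone and were sampled on day 1, the same 4 fish for all 3 days, and groups were kept in separate tanks. The effects of the toxin and of the tank therefore cannot be told apart on any day, and on days 6 and 9 neither can that of elapsed time. On day 9 the same holds for the repeated injection.

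MC-LR is a cyclic peptide toxin of cyanobacteria that is taken up by hepatocytes and inhibits serine/threonine protein phosphatases, and the liver is its main target. Long non-coding RNAs are transcripts without a recognisable protein product, some of which act on chromatin, on transcription or on the stability of other RNAs. The sequencing libraries were made from polyadenylated RNA, so that only lncRNAs with a poly(A) tail were measured. The lncRNAs here are contigs of a de novo (Trinity) assembly, each named by a component number (DN), a cluster (c), a gene (g) and an isoform (i). Such IDs are labels of the assembly, so that finding 0 of 251 in the RefSeq table of whitefish genes was fixed in advance, and no sequence was compared. None of the 251 carries a gene name, and neither genome position nor function can be given for any of them. Markers of liver cell types could not be looked up for the same reason, and in a bulk sample fewer cells of a type and less RNA per cell cannot be told apart.

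Levels are raw counts divided by the size factor of the library, on the scale of the authors' day 1 comparison, and are called normalized counts. The contigs listed for a day held 155677 to 231470 raw reads per MC-LR fish and 109901 to 128767 per PBS fish in the day 1 table, 979744 to 1188494 per MC-LR fish and 1738607 to 2100955 per PBS fish in the day 6 table, and 787813 to 852976 per MC-LR fish and 814309 to 995539 per PBS fish in the day 9 table. The 251 lncRNAs took 1.72 to 4.52% of the listed reads of MC-LR fish on day 1, against 50.3 to 53.4% of those of PBS fish. On day 6 their share was 0.224 to 0.368% in MC-LR fish, against 3.04 to 3.42% in PBS fish, and on day 9 it was 0.514 to 1.51% in MC-LR fish, against 5.73 to 7.73% in PBS fish. These shares are of the listed contigs, whose number differs between days (1100, 3866 and 2543), and not of the whole library. Among the exposed fish, replicate 3 of day 9 stood apart. It was the single highest of the day 9 fish in 168 of the 244 members with reads that day (68.9%), in 882 of 1375 of all lowered contigs with a single highest fish (64.1%), and in 198 of 966 of the raised ones (20.5%). Its level was 1.17 log2 units above the mean of the other 2 fish in the median member. Several summaries of day 9 over the members, and the medians and counts of its tests, are therefore also given without this fish. The mean sum, the coefficient of variation and the means of single contigs are given with all fish only.

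Summed over the 251 lncRNAs, every MC-LR fish kept only a small part of the level of PBS fish. The sum was 5809.6, 7947 and 4794 normalized counts in the MC-LR fish of day 1, 2773, 1999 and 2227 in those of day 6, and 3430.5, 2784 and 7063 in those of day 9, against 55725, 57046, 65251 and 56569 in the PBS fish. All 9 exposed fish lay below all 4 PBS fish, the day 6 fish were below every day 1 fish and below every day 9 fish, and day 9 replicate 3 was closer to the day 1 fish than to the other day 9 fish. The mean sum was 6184 ± 1610 on day 1, 2333 ± 397 on day 6 and 4426 ± 2306 on day 9 (SD, n = 3 each), against 58648 ± 4436 in PBS fish (SD, n = 4). As a share of the PBS mean, single fish held 8.18 to 13.6% on day 1, 3.41 to 4.73% on day 6 and 4.75 to 12.04% on day 9. These sums describe the selection itself, since the comparison with PBS chose the members, and they were not tested.

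**Figure D1:**
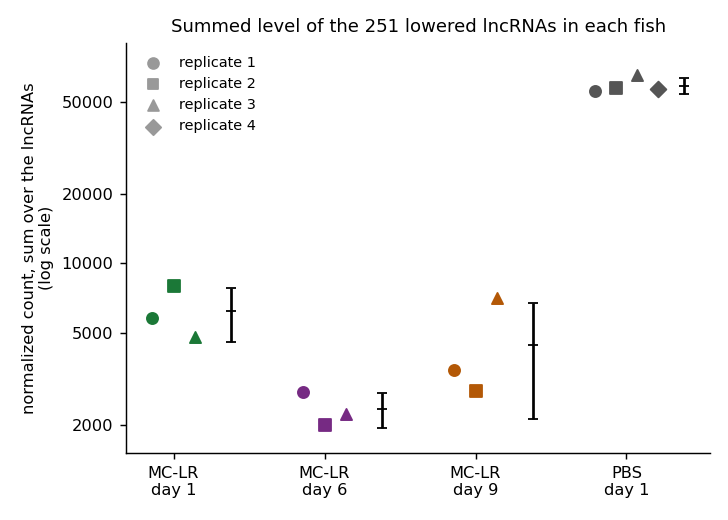
Normalized counts summed over the 251 lncRNAs (y axis, log scale) in each fish of the 4 groups (x axis), with symbols for replicates and the group mean ± SD as a black bar. The 9 MC-LR fish sit between 1999 and 7947, the 4 PBS fish between 55725 and 65251, and day 9 replicate 3 (7063) lies above the other day 9 fish.

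Most members were reduced to a small residue and few kept a larger part of their PBS level. The group mean of the median member was 6.32% of its PBS mean on day 1 (range over members 0 to 38.3%), 2.42% on day 6 (0.0470 to 31.1%) and 5.24% on day 9 (0 to 33.9%). For comparison, the median over all contigs listed as lower on the day was 4.57% on day 1, 3.49% on day 6 and 5.69% on day 9. Members were thus at a somewhat larger residue than lowered contigs at large on day 1 and at a smaller one on days 6 and 9, as a description and without a test. Without day 9 replicate 3 the day 9 median was 2.88%, against 3.15% over all lowered contigs. It was close to the day 6 value on this scale, but scaling by clean reads shifts day 9 over day 6 by 0.39 in log2. The number of members under 10% of PBS was 173 on day 1, 219 on day 6 and 176 on day 9, and that at 20% or above was 27, 9 and 22 for the same days. Without day 9 replicate 3 the day 9 counts were 196 and 21. On all 3 days 228 members were under 25%, with or without this fish. Contigs were listed for a day only if they had changed against PBS fish. The highest residue of any lowered listed contig was 38.3% on day 1, 50.8% on day 6 and 44.8% on day 9. Small residues thus follow in large part from the listing, and nothing further is read from them.

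**Figure D2:**
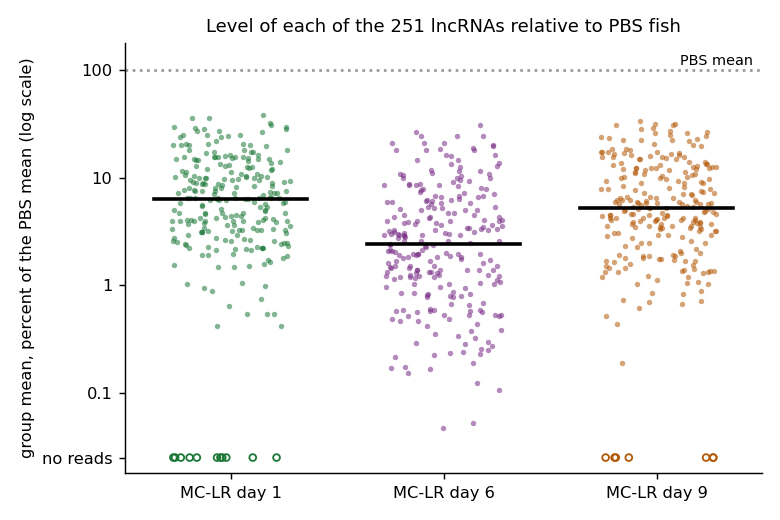
Mean of the 3 MC-LR fish as a percent of the PBS mean (y axis, log scale) for each of the 251 lncRNAs on days 1, 6 and 9 (x axis), with the median as a black bar and members without reads as open circles. The medians are 6.32, 2.42 and 5.24%, and no member reaches the dotted line of the PBS mean.

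The groups hardly overlapped. Every MC-LR fish was below every PBS fish for 248 members on day 1, 251 on day 6 and 249 on day 9, where 49.6% of the 1100 contigs listed for day 1, 64.6% of the 3866 for day 6 and 60.5% of the 2543 for day 9 did so. These bases include contigs raised by MC-LR, which cannot lie below PBS fish. The contigs without overlap were 546, 2497 and 1539, out of 552, 2555 and 1577 lowered ones, so nearly all lowered contigs did so. The lack of overlap in members follows from the selection and nothing is read from it. The 3 members with an overlap on day 1 were TRINITY_DN111461_c6_g1_i6, whose highest MC-LR fish (72.9) passed the lowest PBS fish (64.4), TRINITY_DN83093_c0_g1_i14 (53.9 against 50.8) and TRINITY_DN85463_c7_g4_i2 (23.5 against 23.4). On day 9 they were TRINITY_DN82083_c5_g1_i1 (27.8 against 24.3) and TRINITY_DN92616_c3_g3_i6 (15.98 against 14.4), both through replicate 3. These 5 contigs were singled out after their values were seen.

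In PBS fish all members were detected, at widely different levels. Their PBS mean ranged 20.4 to 3768 normalized counts with a median of 124, against a median of 51.4 for the 91 contigs without reads on day 6 and of 83.3 for the contigs lowered on days 6 and 9 but not listed on day 1. No PBS fish lacked reads of any member. The coefficient of variation between PBS fish was 37.9% in the median member, against 43.6% over all lowered contigs. Between the exposed fish of a day it was 82.8% on day 1, 89.6% on day 6 and 89.0% on day 9 in the median member with reads, at far lower counts. How much was left on day 1 differed with the PBS level: in the 84 members with the lowest PBS means (20.4 to 79.3) the median residue was 4.35%, in the 83 next ones 6.14% and in the 84 with the highest (204 to 3768) 9.01%. On day 6 the same groups had 3.17, 1.89 and 1.98%, and on day 9 they had 5.07, 5.24 and 5.49%, or 4.03, 2.55 and 2.01% without day 9 replicate 3. The day 1 residue thus increased with the PBS level and the day 6 residue was largest in the members with the lowest PBS means. The order on day 9 turned round without 1 fish. These are descriptions without a test, of values that were used to list and select the members. The required read alone keeps the day 6 mean at 0.256 or more, which is a larger percent of a low PBS mean, so no trend with PBS level is read from them.

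The requirement of a read on day 6 sorts these contigs at a low count. The day 6 fish together had 1 to 827 raw reads of a member, with a median of 10, and 22 members were kept by 1 read and 25 by 2 reads. At least 10 reads were present for 126 members and at least 100 for 22. All 3 day 6 fish had reads of 116 members, while all 3 fish had reads of 138 members on day 1 and of 160 on day 9. Presence on day 6 did not mean presence on every day: 11 members had no read in any day 1 fish and 7 had none in any day 9 fish, or 25 without day 9 replicate 3. Of the 91 contigs silent on day 6, in turn, 69 had reads on day 1 and 76 on day 9. Under a minimum of 3 reads 204 contigs would remain members, and under a minimum of 10 reads 126.

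Of the 22 members with 1 read on day 6, nearest to that border, the 3 with the highest PBS mean had uneven PBS levels. Being picked by their PBS mean, they are not read as typical of the 22. TRINITY_DN111461_c6_g1_i6 had 30.1, 72.9 and 9.66 normalized counts in the day 1 fish, 0.769, 0 and 0 in the day 6 fish and 1.96, 0 and 14.8 in the day 9 fish, against 1352, 64.4, 102 and 663 in PBS fish. TRINITY_DN109812_c2_g2_i2 had 41.5, 24.3 and 2.41 (day 1), 0, 0 and 0.826 (day 6) and 7.86, 0 and 26.04 (day 9) in MC-LR fish, against 506, 326, 1085 and 167 in PBS fish. In both, the PBS fish themselves differed several-fold and the single read of day 6 came from 1 fish. TRINITY_DN92793_c7_g3_i2 had 0, 4.19 and 0 in the day 1 fish, 0, 0 and 0.826 in the day 6 fish and 1.31, 5.09 and 5.33 in the day 9 fish, against 207, 303, 459 and 69.2 in PBS fish. The pooled day 6 level of these 3 contigs was 0.0504, 0.0533 and 0.106% of PBS, with 95% exact counting intervals of 0.00128 to 0.281%, 0.00135 to 0.297% and 0.00267 to 0.590%. Such intervals cover counting error only and not the spread between fish.

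Just outside, with 0 reads on day 6, the most abundant contigs were TRINITY_DN89469_c3_g1_i4 (PBS mean 1570 ± 1473, SD, n = 4), TRINITY_DN105991_c2_g1_i1 (599 ± 191) and TRINITY_DN83228_c13_g1_i1 (558 ± 89.4). Against a floor of 3 reads over the day 6 group they were at least 1930-fold, 736-fold and 687-fold lower than in PBS fish. Their day 1 levels were 9.34, 60.4 and 4.83 for the first, 6.22, 4.19 and 2.41 for the second and 36.3, 56.2 and 29.0 for the third. On day 9 they read 4.58, 3.18 and 24.3 for the first, 24.9, 0 and 15.98 for the second and 0.655, 0 and 2.96 for the third. A contig with 0 reads on day 6 could thus have reads before and after it.

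The 5 members with the highest PBS level show how the residue was distributed. TRINITY_DN89811_c1_g1_i4, the most abundant, had 235, 564 and 204 normalized counts (day 1), 44.6, 33.1 and 15.7 (day 6) and 32.8, 53.4 and 137 (day 9) in MC-LR fish, against 2022, 3665, 4274 and 5113 in PBS fish. Exposed and PBS fish were far apart, and the day 6 fish were also apart from the day 1 fish. Its mean was 334 ± 199 on day 1, 31.1 ± 14.6 on day 6 and 74.5 ± 55.4 on day 9 (SD, n = 3 each), against 3768 ± 1307 in PBS fish (SD, n = 4), which is 8.86, 0.826 and 1.98% of the PBS mean.

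TRINITY_DN102409_c3_g1_i1 had 366, 565 and 151 normalized counts in the day 1 fish, 16.1, 9.34 and 3.30 in the day 6 fish and 13.1, 13.99 and 483 in the day 9 fish, against 4682, 1844, 2281 and 2469 in PBS fish. The day 9 mean of 170 ± 271 (SD, n = 3) rested on replicate 3, while the other day 9 fish were at the day 6 level. TRINITY_DN113647_c3_g1_i5 had 152, 174 and 86.9 (day 1), 18.5, 18.7 and 21.5 (day 6) and 25.5, 24.8 and 207 (day 9) in MC-LR fish, against 2017, 1146, 1301 and 3199 in PBS fish. Its day 6 fish differed by little, and again replicate 3 alone was high on day 9. TRINITY_DN81588_c0_g3_i1 followed the same pattern with 384, 208 and 255 in the day 1 fish, 46.9, 46.7 and 44.6 in the day 6 fish and 60.3, 83.3 and 376 in the day 9 fish, against 899, 1682, 817 and 1176 in PBS fish.

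TRINITY_DN80637_c0_g1_i1 had the most even PBS levels of these 5 members. It had 245, 193 and 129 normalized counts (day 1), 10.8, 6.79 and 0.826 (day 6) and 6.55, 0 and 43.2 (day 9) in MC-LR fish, against 1313, 1270.2, 1163 and 944 in PBS fish. The group means were 16.1, 0.523 and 1.41% of the PBS mean on days 1, 6 and 9.

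**Figure D3:**
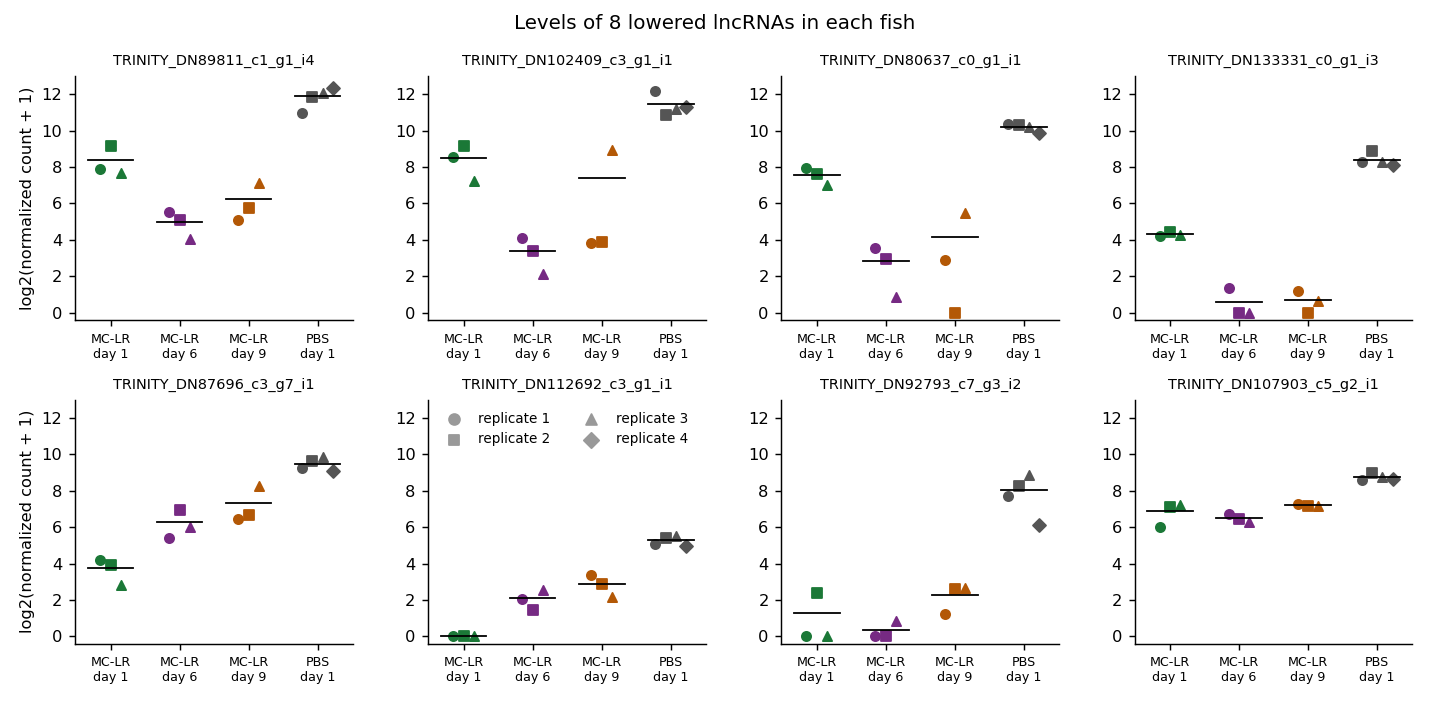
Levels of 8 members as log2(normalized count + 1) (y axis) in each fish of the 4 groups (x axis), with symbols for replicates and a bar at the group mean of normalized counts on the same scale. The first 4 contigs are lower on day 6 than on day 1 with no overlap of fish, TRINITY_DN87696_c3_g7_i1 and TRINITY_DN112692_c3_g1_i1 are higher on day 6 than on day 1, TRINITY_DN92793_c7_g3_i2 is a member kept by 1 read, and TRINITY_DN107903_c5_g2_i1 is among the least lowered.

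The least lowered members kept 17.97 to 33.9% of their PBS level. TRINITY_DN107903_c5_g2_i1 had 64.3, 135.0 and 148 normalized counts in the day 1 fish, 106, 87.5 and 77.6 in the day 6 fish and 154, 144 and 141 in the day 9 fish, against 389, 500.0, 433 and 400.0 in PBS fish. Its means of 116 ± 45.2, 90.4 ± 14.5 and 146 ± 6.87 (SD, n = 3 each) were 26.9, 21.0 and 33.9% of the PBS mean of 430.4 ± 50.1 (SD, n = 4). TRINITY_DN85159_c4_g2_i1 had 36.3, 77.98 and 80.9 (day 1), 74.6, 30.6 and 56.1 (day 6) and 68.8, 56.6 and 76.3 (day 9) in MC-LR fish, against 160.1, 256, 223 and 234 in PBS fish. The exposed days overlapped in TRINITY_DN85159_c4_g2_i1, the day 9 fish of TRINITY_DN107903_c5_g2_i1 lay above its day 6 fish, and in both day 9 replicate 3 was close to the other day 9 fish. TRINITY_DN100899_c5_g2_i1 had 51.9, 68.8 and 91.7 in the day 1 fish, 30.0, 42.5 and 47.1 in the day 6 fish and 77.3, 66.7 and 65.7 in the day 9 fish, against 191, 287, 157 and 252 in PBS fish. None of these 3 members passed the test between any 2 exposed days (edgeR's quasi-likelihood test, Benjamini-Hochberg adjusted p of 0.329 to 1.0).

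Among the most lowered members, besides TRINITY_DN92793_c7_g3_i2, were TRINITY_DN112732_c3_g3_i1 and TRINITY_DN88292_c1_g2_i2. TRINITY_DN112732_c3_g3_i1 had 29.1, 18.4 and 2.41 normalized counts (day 1), 0.769, 3.40 and 1.65 (day 6) and 0, 0 and 14.8 (day 9) in MC-LR fish, against 527, 1474, 2347 and 129 in PBS fish. TRINITY_DN88292_c1_g2_i2 had 0, 5.87 and 0 in the day 1 fish, 0, 0 and 4.13 in the day 6 fish and 0, 1.27 and 17.7 in the day 9 fish, against 175, 513, 1029 and 150.1 in PBS fish. All 3 of the most lowered members varied widely between PBS fish and were highest in PBS replicate 3 and lowest in PBS replicate 4.

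The selection did not directly compare the exposed fish of one day with those of another. This was tested with edgeR's quasi-likelihood test on all contigs listed for both days, with Benjamini-Hochberg adjustment over these contigs and a threshold of 0.05. The p-values set each difference against the spread between fish within groups, PBS fish included, and take the fish as independent. Groups were kept in separate tanks and labels do not say whether fish of a day shared a tank. A difference between tanks therefore cannot be told apart from one between days. The read required on day 6 leaves out contigs at 0 on that day, which bears on both contrasts with day 6. It fixed a positive difference of day 6 over day 1 for the 11 members without reads on day 1. It likewise fixed a negative difference of day 9 over day 6 for the 7 members without reads on day 9.

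Between day 6 and day 1 most members had a negative difference, and those that passed the test were mostly lower on day 6. The fitted log2 difference was negative for 192 members and positive for 59, with a median of -1.23. Over the 679 contigs listed for both days it was negative for 430 and positive for 211. Of the 251 members, 54 passed the test as lower on day 6 (21.5%), where 21.4% of the 679 contigs listed for both days did so, and 4 passed as higher (1.59%), where 5.01% of those contigs did so. The share of members that were lower was close to that of the listed contigs as a whole. Over all 679 contigs the median was -0.79, and over the 482 of them that were lower than PBS on both days it was -1.39. Of these 482, which leave out contigs raised by MC-LR, 25.5% passed as lower and 1.04% as higher. With the 11 members without reads on day 1 placed at the floor of 3 reads per group, the members' median was -1.36. Scaling by the clean reads of each library shifted the scale between these days by 0.49 in log2 and gave a members' median of -0.78 with 35 members lower and 4 higher. Scaling by TMM of the listed contigs gave a median of -0.88 with 37 lower, and median-of-ratios size factors of these contigs gave -0.80 with 36 lower, both with 4 higher. Shares over all 679 contigs are not given for these other scalings, so their counts are not read as particular to the members.

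**Figure D4:**
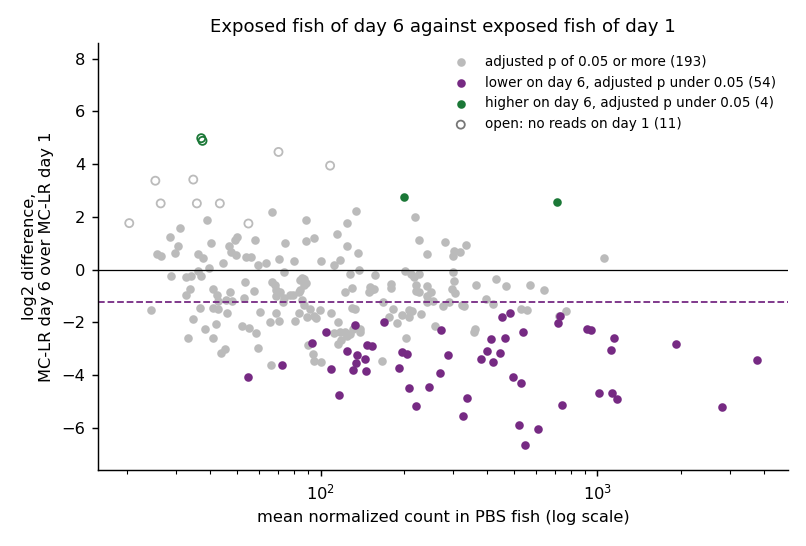
Fitted log2 difference of MC-LR day 6 over MC-LR day 1 (y axis) against the mean normalized count in PBS fish (x axis, log scale) for the 251 lncRNAs, with the members past an adjusted p of 0.05 in colour, those without reads on day 1 as open circles and the median of -1.23 as a dashed line. The 54 members called lower have a median PBS mean of 360, and the 4 called higher lie between 2.57 and 4.98.

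The 54 members that were lower on day 6 had log2 differences of -6.63 to -1.64 with a median of -3.38, and in 47 of them all day 6 fish were below all day 1 fish. Passing the test itself favours such a gap, and the share over all listed contigs is not given, so nothing is read from it. Their median PBS mean was 360 normalized counts, against 124 over all members. Since a fall can pass the test more easily at higher counts, and the median member had 6.56 on day 1, this is not read as a trait of the 54. Among the abundant members named above, TRINITY_DN102409_c3_g1_i1 fell by 5.21 ± 0.74 on the log2 scale (SE, edgeR adjusted p = 4.65e-05), TRINITY_DN80637_c0_g1_i1 by 4.91 ± 0.70 (4.65e-05) and TRINITY_DN89811_c1_g1_i4 by 3.42 ± 0.65 (0.000496). TRINITY_DN113647_c3_g1_i5 and TRINITY_DN81588_c0_g3_i1 fell by 2.81 ± 0.58 and 2.61 ± 0.54, both with an edgeR adjusted p of 0.00101. In all 5 the day 6 fish lay below the day 1 fish without overlap.

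TRINITY_DN86634_c3_g1_i5 was a further member with a small adjusted p. It had 54.0, 193 and 39.8 normalized counts (day 1), 0.769, 1.70 and 1.65 (day 6) and 3.93, 9.54 and 58.6 (day 9) in MC-LR fish, against 326, 462, 478 and 1171 in PBS fish. The day 6 fish together had 5 reads, and the level fell by 6.02 ± 0.87 on the log2 scale between day 1 and day 6 (edgeR adjusted p = 4.68e-05). TRINITY_DN111461_c6_g1_i6 and TRINITY_DN109812_c2_g2_i2, both kept by 1 read, fell by 6.63 ± 1.37 (edgeR adjusted p = 0.00101) and 5.90 ± 1.20 (0.000891). From the pooled reads their day 6 levels were 0.653 and 1.14% of the day 1 levels, with 95% exact counting intervals of 0.0164 to 3.70% and 0.0285 to 6.56%. TRINITY_DN112732_c3_g3_i1 passed with a log2 difference of -3.06 ± 1.01 and an edgeR adjusted p of 0.0288, although its day 6 and day 1 fish overlapped.

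The 4 members that passed as higher on day 6 were among the 59 with a positive difference, and 3 of them rested on few reads. TRINITY_DN87696_c3_g7_i1 had 17.6, 14.3 and 6.03 normalized counts in the day 1 fish, 41.5, 122 and 64.4 in the day 6 fish and 84.5, 101 and 299 in the day 9 fish, against 609, 798, 904 and 536 in PBS fish. All exposed fish stayed below the PBS fish, and the fish of both later days were above all day 1 fish. The means were 1.78, 10.7 and 22.7% of the PBS mean, that of day 9 resting in large part on replicate 3 (299). The level was higher on day 6 than on day 1 by 2.57 ± 0.61 on the log2 scale (edgeR adjusted p = 0.00315).

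TRINITY_DN112692_c3_g1_i1 had 0, 0 and 0 normalized counts (day 1), 3.08, 1.70 and 4.95 (day 6) and 9.17, 6.36 and 3.55 (day 9) in MC-LR fish, against 33.2, 41.1, 45.1 and 30.6 in PBS fish. TRINITY_DN92896_c1_g1_i8 had 0, 0 and 0 in the day 1 fish, 4.61, 0 and 5.78 in the day 6 fish and 5.89, 6.36 and 9.47 in the day 9 fish, against 29.3, 50.1, 41.1 and 27.9 in PBS fish. Neither had a read in any day 1 fish, where they were at least 37.3-fold and 36.9-fold lower than in PBS fish. Against the same floor of 3 reads over the day 1 group, TRINITY_DN112692_c3_g1_i1 was at least 3.23-fold higher on day 6 (12 reads, edgeR adjusted p = 0.0217) and TRINITY_DN92896_c1_g1_i8 at least 3.45-fold higher (13 reads, edgeR adjusted p = 0.0348), although 1 of its day 6 fish had no read.

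TRINITY_DN110719_c5_g4_i1 had 0, 2.52 and 0 normalized counts (day 1), 8.46, 5.096 and 7.43 (day 6) and 5.24, 2.54 and 11.2 (day 9) in MC-LR fish, against 316, 159, 136 and 186 in PBS fish. From 26 and 3 reads its pooled level was 7.01-fold higher on day 6 than on day 1, with a 95% exact counting interval of 2.15 to 36.2 (edgeR adjusted p = 0.0485). Its call was lost without any one of the exposed fish except day 1 replicate 2, and without any one of the PBS fish.

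The count of lower members on day 6 did not hang on a single fish, while the count of higher ones was small enough to do so. Leaving out each fish in turn gave 36 to 69 members lower on day 6 than on day 1, with 36 without day 1 replicate 2, the fish with the highest sum on day 1, and 69 without day 1 replicate 3, the fish with the lowest. For the 4 higher members the count was 1 without day 1 replicate 1 or day 6 replicate 3, 2 without day 1 replicate 3 or day 6 replicate 1, and 3 in every other case. The plot of calls without each fish shows both series. Without the matching shares over all listed contigs, these counts show only how far the calls moved.

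**Figure D5:**
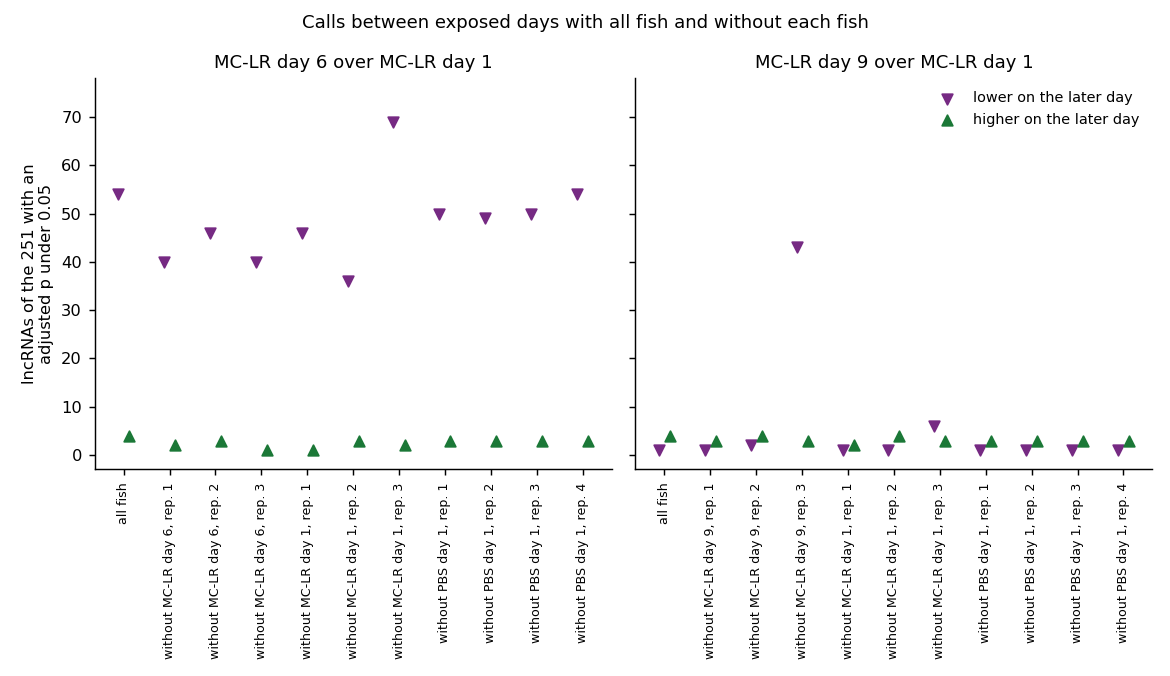
Number of the 251 lncRNAs with an edgeR adjusted p under 0.05 (y axis) between MC-LR day 6 and day 1 (left) and between MC-LR day 9 and day 1 (right), with all fish and without each fish in turn (x axis), as lower (downward triangles) and higher (upward triangles) on the later day. On the left the lower calls stay between 36 and 69, and on the right they are 1 with all fish and 43 without day 9 replicate 3. Shares over all listed contigs are not shown.

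Between day 9 and day 6 no member passed the test. The fitted log2 difference was positive for 208 members and negative for 43, with a median of 1.09, or 1.14 with the 7 members at 0 on day 9 placed at their floor, where the median over the 2075 contigs listed for both days was 0.21 and that over the 1346 lower than PBS on both days was 0.66. In edgeR 0 members were higher and 0 lower, where 0.0% of the 2075 contigs were higher and 0.0% lower. At an unadjusted edgeR p under 0.05 there were 46 higher members and 3 lower ones of 251, where 196 of the 2075 contigs were higher and 78 lower. None of these passed after adjustment, so nothing is read from the counts. The smallest adjusted p of a member was 0.196, that of TRINITY_DN86634_c3_g1_i5 (log2 difference 4.05 ± 1.05). DESeq2 on the same counts called 13 members higher and 0 lower, and its share over all 2075 contigs is not given here. Day 9 replicate 3 carried most of this difference: without it the members' median was 0.22, and edgeR again called 0 members in either direction. With the other scalings and all fish the median was 1.46 (clean reads), 1.63 (TMM) and 0.70 (median of ratios), with 0 members called.

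Between day 9 and day 1 the place of the middle member depended on the scaling and on 1 fish. The median log2 difference was -0.05, or -0.20 with members at 0 on a day placed at the floor, and 0.00 over the 483 contigs listed for both days. In edgeR 4 members were higher on day 9 (1.59%), where 3.93% of the 483 contigs were higher, and 1 was lower (0.398%), where 3.11% were lower. Of the 360 contigs lower than PBS on both days, 1.11% were higher on day 9 and 1.11% lower. DESeq2 called 12 members higher and 21 lower. Scaling by clean reads shifted the scale between these days by 0.88 in log2 and gave a fitted median of 0.67 with 10 members higher and 1 lower, while TMM and median-of-ratios scaling both gave a median of 0.00. Without day 9 replicate 3 the median was -0.84 with 43 members lower and 3 higher in edgeR. The count of lower members was also moved by leaving out day 1 replicate 3 (6) or day 9 replicate 2 (2), and that of higher members by leaving out day 1 replicate 1 (2). In edgeR, the number of members lower on day 9 than on day 1 thus turned on 1 fish. Shares over all 483 contigs are not given for DESeq2, the other scalings or the fits without a fish. Their counts are therefore not read as particular to the members.

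The member that was lower on day 9 than on day 1 was TRINITY_DN133331_c0_g1_i3. It had 17.6, 21.0 and 18.1 normalized counts in the day 1 fish, 1.54, 0 and 0 in the day 6 fish and 1.31, 0 and 0.592 in the day 9 fish, against 308, 466, 307 and 272 in PBS fish. Here day 9 replicate 3 was as low as its group, and the day 1 fish were close together. It fell by 4.87 ± 0.90 on the log2 scale between day 1 and day 6 (edgeR adjusted p = 0.00045) and by 4.70 ± 0.80 between day 1 and day 9 (0.00233). From 2 and 3 pooled reads its level was 0.160% of PBS on day 6 (95% exact counting interval 0.0193 to 0.578%) and 0.184% on day 9 (0.0380 to 0.540%).

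The 4 members that were higher on day 9 than on day 1 were all low or absent on day 1. TRINITY_DN87696_c3_g7_i1 was higher by 3.66 ± 0.69 on the log2 scale (edgeR adjusted p = 0.00432). Its highest day 9 fish was replicate 3, and leaving out each fish in turn gave differences of 2.85 to 3.96. TRINITY_DN112692_c3_g1_i1 was at least 6.33-fold higher (30 reads, edgeR adjusted p = 0.0159) and TRINITY_DN92896_c1_g1_i8 at least 7.20-fold higher (35 reads, edgeR adjusted p = 0.0121) than the floor of the day 1 group. The fourth, TRINITY_DN87718_c1_g3_i2, named after its values were seen, had 0, 0 and 0 normalized counts (day 1), 0, 0 and 4.95 (day 6) and 3.93, 1.27 and 11.8 (day 9) in MC-LR fish, against 119, 92.1, 129 and 92.6 in PBS fish. It was at least 5.65-fold higher on day 9 than the day 1 floor (28 reads, edgeR adjusted p = 0.0429).

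The order of the 3 days in the members' means shows the same dependence on day 9 replicate 3. With all fish, the lowest of the 3 exposed means fell on day 6 in 171 members, on day 1 in 55 and on day 9 in 25, and the highest fell on day 1 in 123, on day 9 in 105 and on day 6 in 23. Without day 9 replicate 3 the lowest mean fell on day 6 in 119 members, on day 9 in 87 and on day 1 in 45, and the highest fell on day 1 in 164, on day 9 in 55 and on day 6 in 32. In each count of lowest means 4 members had a tie and were placed on the earlier day. On this scale day 6 remained the most frequent low point in both counts. Clean reads shift the scale by 0.49, 0.39 and 0.88 in log2 for days 6 over 1, 9 over 6 and 9 over 1. The order of the days was not counted on that scale. The same counts over other lowered contigs are not given. The median log2 difference of day 6 over day 1 was -1.23 in members. It was -1.39 over the 482 contigs lower than PBS on both days, which include the members. The low point is therefore not read as particular to the members.

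Within a day the exposed fish deviated from each other in many members at once. On day 1 replicate 2 was the single highest fish in 138 of 240 members with reads (57.5%) and in 271 of 478 lowered contigs with reads that day (56.7%). Day 1 replicate 3 lacked reads of 106 members, against 37 in replicate 1 and 22 in replicate 2. Day 1 replicate 3 lay 1.22 log2 units below the mean of the other 2 fish in the median member, against 0.89 below in all lowered contigs and 0.27 below in raised ones. On day 6 the fish lacked reads of 55, 83 and 62 members, and replicate 1 was the single highest in 114 of 251 (45.4%). On day 9 they lacked reads of 40, 70 and 16 members. The recovered size factors were 0.8285 to 1.19 on day 1, 1.18 to 1.3 on day 6, 1.53 to 1.69 on day 9 and 1.02 to 1.12 in PBS fish, and the differences between days under 3 other scalings are given above.

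Most members came from separate Trinity genes. The 251 contigs belonged to 242 genes, of which 8 held more than 1 member (17 members in all), and to 230 components, of which 18 held more than 1. Another 44 listed contigs shared a gene with a member without being members. All 44 were lower than PBS on each day they were listed and 0 were higher, and 7 of them were silent on day 6. Isoform contigs of a gene can share reads, so that such contigs are not independent of each other and how reads were divided between them is uncertain.

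The gene with the most members was TRINITY_DN105584_c2_g1, with 3. Isoform i6 had 3.11, 3.35 and 0 normalized counts in the day 1 fish, 0, 0 and 1.65 in the day 6 fish and 1.31, 2.54 and 0 in the day 9 fish, against 103, 76.9, 180.3 and 24.3 in PBS fish. Isoform i34 had 0, 0 and 0 (day 1), 1.54, 0 and 0 (day 6) and 0, 0 and 0 (day 9) in MC-LR fish, against 38.1, 45.6, 54.9 and 4.49 in PBS fish. Isoform i16 had 0, 0 and 0 in the day 1 fish, 3.08, 0 and 0 in the day 6 fish and 0, 1.27 and 0 in the day 9 fish, against 27.3, 21.5, 48.0 and 4.49 in PBS fish. All 3 were highest in PBS replicate 3 and lowest in PBS replicate 4, and each was read in a single day 6 fish. Isoform i34 was at least 35.6-fold lower on day 1 and at least 57.1-fold lower on day 9 than in PBS fish. None passed the test between exposed days (edgeR adjusted p of 0.221 to 1.0).

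The component with the most members was TRINITY_DN96051, with 4 contigs in 3 genes, chosen after the members were counted. TRINITY_DN96051_c2_g2_i3, its most abundant, had 11.4, 36.9 and 16.9 normalized counts (day 1), 16.1, 22.1 and 5.78 (day 6) and 28.2, 3.81 and 29.6 (day 9) in MC-LR fish, against 671, 750, 567 and 302 in PBS fish. TRINITY_DN96051_c2_g3_i2 had 0, 6.71 and 0 in the day 1 fish, 6.15, 24.6 and 0 in the day 6 fish and 11.8, 2.54 and 14.8 in the day 9 fish, against 287, 251, 175 and 165 in PBS fish. In both, day 6 replicate 2 was the highest and replicate 3 the lowest day 6 fish, and day 9 replicate 2 was the lowest day 9 fish. The other members were TRINITY_DN96051_c2_g1_i5 and TRINITY_DN96051_c2_g2_i2, with PBS means of 215 and 202.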

How the data were processed

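Livers of 13 whitefish were analysed, 3 MC-LR fish each of days 1, 6 and 9 and 4 PBS fish of day 1, grouped by their labels. Per the methods of the study, reads were trimmed with Trimmomatic 0.36, assembled de novo with Trinity, filtered by abundance with RSEM and for coding potential, and counted per contig with SAMtools. The raw counts were deposited by the authors for the contigs of each day's comparison only, and 0 count columns belonged to other samples. The deposited base mean is a signal, the mean over 7 fish of counts that the authors divided by the size factors of DESeq2 1.28.0. The authors' log2 fold changes, standard errors, test statistics, p-values and adjusted p-values were deposited beside them and were not used. Contig sequences were not used here.

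Size factors were recovered from counts and base means (relative error at most 5.77e-15), and the day 6 and day 9 tables were brought to the day 1 scale through the PBS fish, whose counts are the same in all tables. Exposed days were compared pairwise with edgeR 4.0.16 (R 4.3.3; glmQLFit and glmQLFTest, no filter on low counts, prior count 0.125, PBS fish included for the spread), adjusted over the contigs listed for both days. All of these contigs had been listed against the same PBS fish, so that adjusted p-values do not cover the rest of the transcriptome. SE is the size of the fitted log2 difference over the square root of the test statistic (F). MC-LR against PBS was only described. Fits were also run on simulated counts, with each contig's mean taken over all fish of the fit, PBS fish included. Those means lie above the members' means in exposed fish, so nothing is read from the simulation about such low counts. A group without reads was given a floor of 3 raw reads over the group. Folds against this floor leave out the counting error of the other group, so they are not lower limits. Counting intervals (95%) are exact conditional (Clopper-Pearson) intervals of pooled reads.

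The members and lists were chosen with earlier results of these data known. Named contigs are the 5 with the highest PBS mean, per pair of days and direction up to 3 with the smallest adjusted p under 0.05 and no overlap of fish, the 3 with the fewest day 6 reads and the 3 most abundant contigs with 0, the gene with the most members, and the 3 least and 3 most lowered. Alternatives were DESeq2 1.42.0, 3 other scalings, 1 fit of 13 fish, no PBS fish, a minimum mean of 10, the study's thresholds (adjusted p of 0.001, log2 of 2), a replicate block, and leaving out each fish. Replicates differed beyond sampling noise (chi-square over degrees of freedom at least 33.9), so that each library was counted once.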

Additional observations from a re-analysis of the deposited data

Results flagged for a closer look

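The 18 differences below concern named members whose exposed fish differed between days past an adjusted p of 0.05 (edgeR's quasi-likelihood test, Benjamini-Hochberg adjusted over the contigs listed for both days), so that their level relative to the same PBS fish differed between these days. Whether this belongs to the toxin, elapsed time, the tank or, on day 9, the repeated injection cannot be told apart. All values are log2 differences of the later over the earlier exposed day, no explanation is offered for any of them, and those of contigs without reads on day 1 depend on the prior count of the fit.

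Lower on day 6 than on day 1 were TRINITY_DN111461_c6_g1_i6 (-6.63), TRINITY_DN86634_c3_g1_i5 (-6.02), TRINITY_DN109812_c2_g2_i2 (-5.90), TRINITY_DN102409_c3_g1_i1 (-5.21), TRINITY_DN80637_c0_g1_i1 (-4.91), TRINITY_DN133331_c0_g1_i3 (-4.87), TRINITY_DN89811_c1_g1_i4 (-3.42), TRINITY_DN112732_c3_g3_i1 (-3.06), TRINITY_DN113647_c3_g1_i5 (-2.81) and TRINITY_DN81588_c0_g3_i1 (-2.61). Among these, TRINITY_DN111461_c6_g1_i6 and TRINITY_DN109812_c2_g2_i2 had 1 read on day 6. Higher on day 6 were TRINITY_DN92896_c1_g1_i8 (4.98), TRINITY_DN112692_c3_g1_i1 (4.88), TRINITY_DN110719_c5_g4_i1 (2.73) and TRINITY_DN87696_c3_g7_i1 (2.57). Of these, TRINITY_DN92896_c1_g1_i8 and TRINITY_DN112692_c3_g1_i1 had 0 reads on day 1, so that the read required on day 6 fixed their direction. On day 9 compared with day 1, TRINITY_DN92896_c1_g1_i8 (6.15), TRINITY_DN112692_c3_g1_i1 (5.96) and TRINITY_DN87696_c3_g7_i1 (3.66) were higher and TRINITY_DN133331_c0_g1_i3 (-4.70) was lower.

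In none of the 25 named contigs did a PBS fish stand apart from the other 3 by Dixon's criterion. It did in 20 of the 251 members, where chance gives about 1 in 20.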

How the results depend on the processing

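None of the 18 differences of named members reversed under the alternatives run, though those of contigs without reads on day 1 could not. Of their 342 refits, 289 kept their side of the threshold. The most losses were those of TRINITY_DN110719_c5_g4_i1 (13 of 19) and TRINITY_DN112732_c3_g3_i1 (11 of 19). For day 6 over day 1, members higher (4) became 1 without the PBS fish and 0 at the study's thresholds, and members lower (54) became 35 when scaled by clean reads, with a median of -0.78, and 12 at the study's thresholds. For day 9 over day 6, DESeq2 called 13 members higher (edgeR 0). For day 9 over day 1, members higher (4) became 12 in DESeq2, 10 with clean reads, 1 without the PBS fish and 0 at the study's thresholds, and members lower (1) became 21 in DESeq2, 2 with median-of-ratios size factors, 2 in the fit of 13 fish, 3 without the PBS fish and 0 at the study's thresholds. Clean reads shifted the scale by 0.49, 0.39 and 0.88 in log2 for days 6 over 1, 9 over 6 and 9 over 1. The cause of these moves was not tested, and the matching shares over all listed contigs are not given for these alternatives. Leaving out each fish in turn gave 1 to 3 higher and 36 to 69 lower members for day 6 over day 1 (median -1.44 to -0.86), 0 to 0 in both directions for day 9 over day 6 (median 0.22 to 1.29), and 2 to 4 higher and 1 to 43 lower for day 9 over day 1 (median -0.84 to 0.17). Median percents of PBS were 4.64 to 7.71 on day 1, 1.99 to 2.62 on day 6 and 2.88 to 6.45 on day 9, and the number of members 225 to 251. The replicate numbers did not pair the fish (correlations of same-numbered deviations -0.41 to 0.22). With the replicate number as a block, day 6 over day 1 had 1 higher and 48 lower members, day 9 over day 1 had 0 higher and 1 lower, and day 9 over day 6 had 0 and 0. Members with few reads on day 6 (47 with 1 or 2) are at the limit of this depth.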
